A study of Rattus norvegicus with 9 samples.

Results

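Genes of cholesterol synthesis, sterol sensing and intracellular sterol transport were followed in zona glomerulosa cells, the outer cell layer of the adrenal cortex that makes aldosterone, from rats. The set was defined by gene symbol, and 25 of its 27 genes were measured, out of 14217 genes with a single symbol on the array, by 44 of the 31042 probe sets that were not array controls. Hmgcs1 and Npc1 were not analysed here, and none of the measured members is a lipoprotein receptor, so uptake of LDL itself was not covered. Cells were freshly isolated by enzymatic and mechanical dispersion and kept for 2 h at 37 °C under 5% CO2 in DMEM:F12 with 0.5% albumin free of fatty acids. The 3 groups were a control without stimulus, 100 nM angiotensin II (Ang II) and 16 mM potassium. Ang II and potassium are the main physiological stimuli of aldosterone secretion. Each of 3 independent cell preparations supplied 1 tube to every group, giving 9 arrays (Affymetrix Rat Genome 230 2.0), 3 per group. The strain, sex and age of the rats, and how many animals went into a preparation, were not given in the sources used here. Values are linear signals per probe set, and fold changes are differences of log2(signal + 16) from a limma fit with the preparation as a block, given ± SE, with p-values adjusted by Benjamini-Hochberg over all 18625 tested probe sets. A gene was called at an adjusted p under 0.05 on its brightest tested probe set, and all 25 genes had one.

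Cholesterol is the substrate of every adrenal steroid. It is built from acetyl-CoA through mevalonate to farnesyl diphosphate, then through squalene and lanosterol to the sterols proper. Most of these enzymes are under the control of the SREBP transcription factors, which Scap escorts out of the endoplasmic reticulum when sterols are scarce and which the Insig proteins hold back when sterols are plentiful. Glomerulosa cells also draw cholesterol from lipoproteins and from lipid droplets, in which it is stored as esters.

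A few steps of the pathway were called, and the calls were not the same for both stimuli. Idi1, the isopentenyl diphosphate isomerase of the mevalonate arm, rose 1.60-fold with Ang II and 1.34-fold with potassium. Msmo1, the methylsterol monooxygenase of the late sterol arm, rose 1.46-fold with Ang II and was called higher with Ang II than with potassium. Insig1, the sterol-sensing retention protein, rose 1.39-fold with potassium and was called lower with Ang II than with potassium, a difference that lost its call in 15 of 24 alternative settings. Cyp51, the lanosterol demethylase, rose 1.21-fold with potassium, a call that ended in 17 of the 24. It was 1.14-fold with Ang II, which was not called, and the stimuli were not called different for it (limma, adjusted p = 0.631). By limma 0 members were called lower than control with either stimulus. At an unadjusted p under 0.05 there were 6 members with Ang II, 5 higher and 1 lower (Scap). With potassium there were 9, 8 higher and 1 lower (Stard4). The share of all tested probe sets under that unadjusted threshold was not counted.

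With Ang II, 2 of 25 members were called, both higher, where 2.2% of all tested probe sets were called in either direction, 1.66% higher and 0.532% lower. With potassium, 3 of 25 were called, all higher, against 5.36% called in either direction, 2.78% higher and 2.58% lower. Between the stimuli, 2 members were called higher and 1 lower with Ang II, against 4.79% called in either direction, 3.09% higher and 1.7% lower. These shares cover every tested probe set, dim ones included, whereas each member stands by its brightest. Earlier results of these data were known when the members were chosen, so the comparison is not independent of them. A filter at the 60th percentile tested fewer probe sets and called 452, 1082 and 995, against 409, 998 and 892. The share called was thus larger among brighter probe sets. The median fold change of the 25 members was 0.11 (log2) with Ang II and 0.08 with potassium, beside -0.025 and -0.02 over all tested probe sets. A rise in sign alone was seen for 14 members with Ang II and for 17 with potassium, where 44.9% and 46.4% of all tested probe sets had a positive value. Ang II against potassium gave a members' median of -0.07, with 17 of 25 negative, beside -0.01 over all tested probe sets. Both stimuli share the same 3 control arrays. Scaling every array to its overall median moved the median of the tested probe sets to 0.09 with Ang II and 0.10 with potassium and that of the members to 0.23 and 0.20. Averaging a gene's tested probe sets, instead of taking the brightest, gave members' medians of 0.01 and 0.04, and quantile normalization gave 0.12 and 0.15. With each array or preparation left out in turn, the members' median was 0.03 (without preparation 1) to 0.11 with Ang II and 0.03 (without the potassium array of preparation 1) to 0.17 (without that of preparation 3) with potassium. Between the stimuli it was -0.10 (without the potassium array of preparation 3) to 0.01 (without preparation 1).

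**Figure D1:**
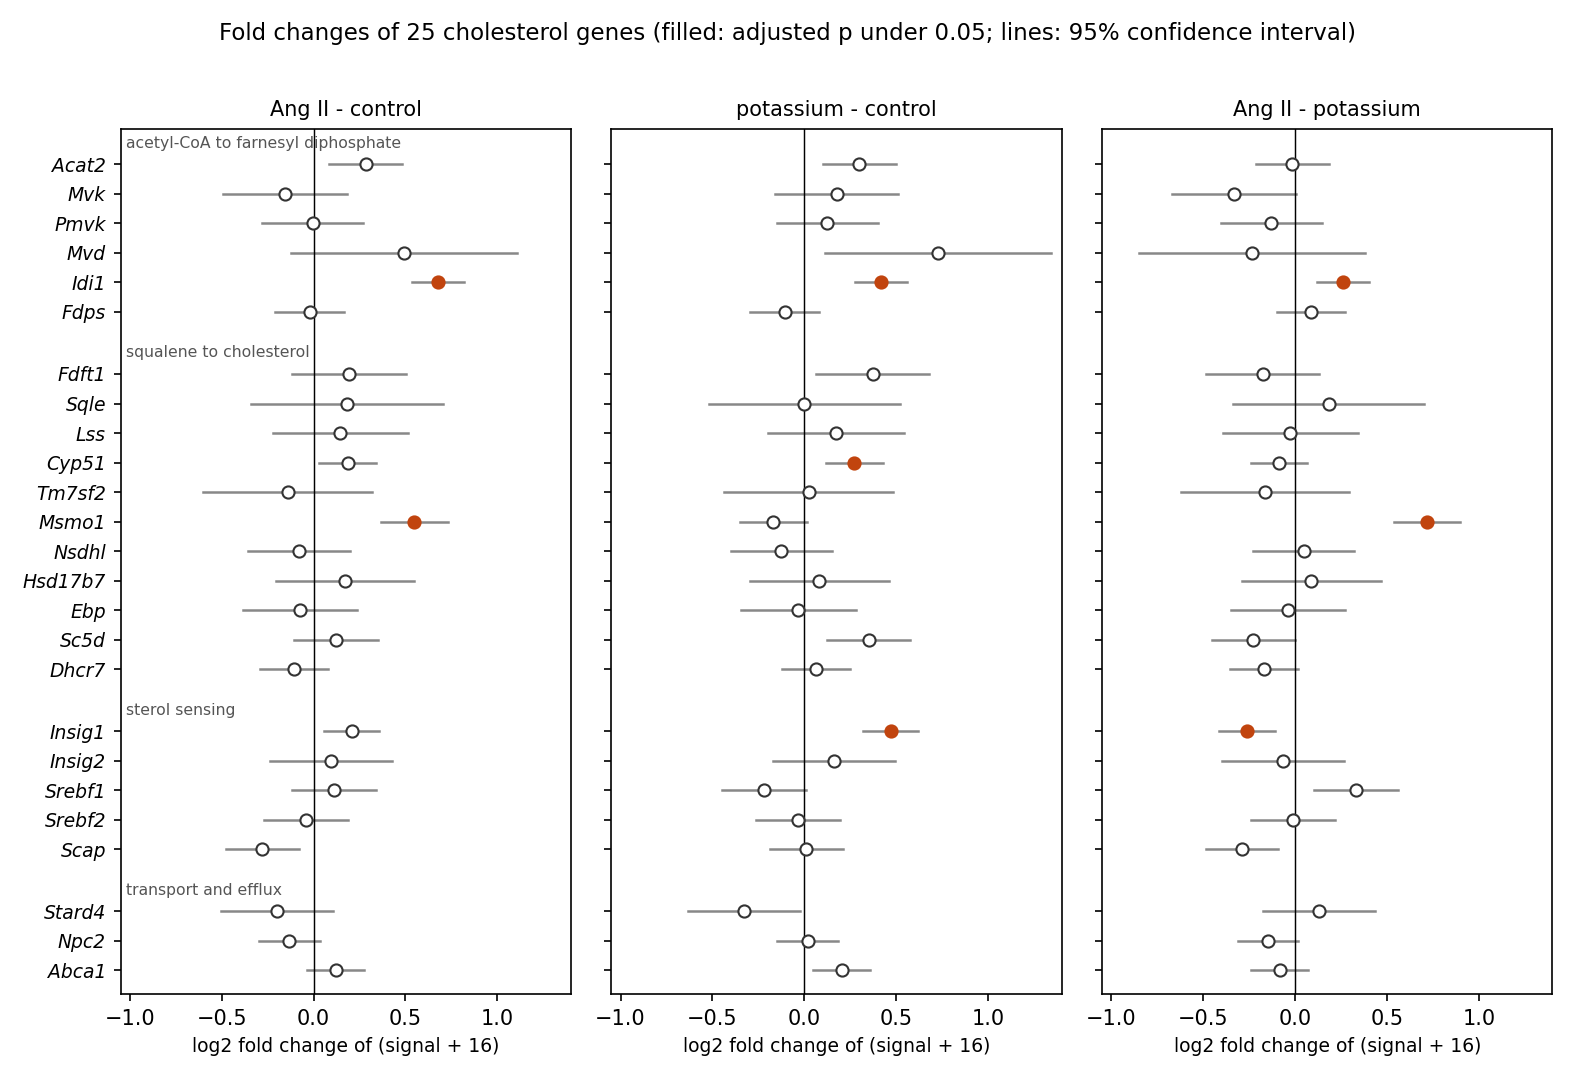
Log2 fold change of (signal + 16) for the 25 measured genes in the 3 comparisons, by role in the pathway. Points are the limma estimates, lines their 95% confidence intervals, and filled points have an adjusted p under 0.05. Idi1 is filled in all 3 panels, Msmo1 in the panels with Ang II, Insig1 in the panels with potassium, and Cyp51 only for potassium against control.

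The promoters of the 4 genes called in any comparison are shown because the SREBP pathway acts through short promoter elements. They come from RefSeq on assembly GRCr8, each 300 bases from 250 before the annotated start to 50 after it: Idi1 at chr17:66547475-66547774 on the minus strand, Msmo1 at chr16:29746863-29747162 on the plus strand, Insig1 at chr4:8057720-8058019 on the minus strand and Cyp51 at chr4:30991443-30991742 on the plus strand. They are written 5′ to 3′ along the gene, and capitals mark matches on either strand to CCAAT, the core bound by NF-Y, and to GGGCGG, the core bound by Sp1.
Idi1: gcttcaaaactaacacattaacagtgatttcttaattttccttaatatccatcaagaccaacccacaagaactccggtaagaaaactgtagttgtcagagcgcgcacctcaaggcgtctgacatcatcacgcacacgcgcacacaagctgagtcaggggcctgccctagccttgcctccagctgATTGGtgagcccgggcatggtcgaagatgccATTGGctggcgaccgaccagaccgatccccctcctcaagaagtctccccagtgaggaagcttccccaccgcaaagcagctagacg
Msmo1: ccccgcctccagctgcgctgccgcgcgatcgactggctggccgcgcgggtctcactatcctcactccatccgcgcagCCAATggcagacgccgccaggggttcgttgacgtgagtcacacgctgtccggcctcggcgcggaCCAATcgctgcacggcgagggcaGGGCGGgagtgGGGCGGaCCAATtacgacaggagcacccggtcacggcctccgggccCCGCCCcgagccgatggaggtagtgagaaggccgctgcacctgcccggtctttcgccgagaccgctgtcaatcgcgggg
Insig1: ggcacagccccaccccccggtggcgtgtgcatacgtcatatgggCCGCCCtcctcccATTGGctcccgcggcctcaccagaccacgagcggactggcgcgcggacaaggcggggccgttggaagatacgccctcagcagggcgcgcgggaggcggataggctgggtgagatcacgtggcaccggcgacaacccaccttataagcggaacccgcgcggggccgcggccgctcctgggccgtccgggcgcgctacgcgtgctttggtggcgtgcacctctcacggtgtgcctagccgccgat
Cyp51: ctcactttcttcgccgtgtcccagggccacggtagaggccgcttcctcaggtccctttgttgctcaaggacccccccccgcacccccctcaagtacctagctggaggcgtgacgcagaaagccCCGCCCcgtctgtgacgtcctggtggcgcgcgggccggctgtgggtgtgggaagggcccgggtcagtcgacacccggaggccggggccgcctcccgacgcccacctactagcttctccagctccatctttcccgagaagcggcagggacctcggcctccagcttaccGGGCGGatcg
In the Idi1 window CCAAT was matched on the reverse strand at bases 185 to 189 and 216 to 220, and GGGCGG was not matched. The Msmo1 window held 3 matches to CCAAT and 3 to GGGCGG. Insig1 had 1 match to each, and Cyp51 had 2 to GGGCGG and none to CCAAT. A window was found for 21 of the 25 measured genes, and 16 of these held CCAAT and 18 held GGGCGG, beside 37.5% and 33.1% of all 33469 windows of the same length. A gene with several windows was counted if any of them held the motif, whereas the background counts single windows. The windows were not matched for base composition. TCACNCCAC, a form of the sterol regulatory element, was in none of the 21 and in 1.12% of all windows, TGACGTCA, the cAMP response element, in none and 1.83%, and AAAGGTCA, the element bound by Nr4a factors, in none and 1.43%. Both strands were searched for every motif, and none of these motifs overlaps another within the 4 windows shown. A match is only a stretch of letters, and a missing match says only that those letters are not in this window.

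In the mevalonate arm, which runs from acetyl-CoA to farnesyl diphosphate, Idi1 was the 1 gene of 6 called with either stimulus. It interconverts the isoprenoid building blocks isopentenyl and dimethylallyl diphosphate. The Idi1 signal (probe set 1368878_at) was 4221, 3597 and 3799 in the control arrays of preparations 1 to 3, 6347, 6053 and 6184 with Ang II, and 5517, 4660 and 5358 with potassium. No array of one group overlapped another group, and the order control, potassium, Ang II held in each of the 3 preparations. Means were 3873 ± 318 (SD, n = 3), 6195 ± 148 and 5178 ± 456. The log2 fold change was 0.68 ± 0.07 with Ang II (limma, adjusted p = 2.74e-05) and 0.42 ± 0.07 with potassium (adjusted p = 0.00131). Directly compared, Idi1 was 0.26 ± 0.07 higher with Ang II than with potassium (adjusted p = 0.0341). That last call ended without each of the 6 stimulated arrays in turn (adjusted p = 0.0674 to 0.207), without each preparation (0.0958 to 0.222) and without the block (0.187). It also ended with no filter on low signals and with either scaling to a median (adjusted p = 0.0601, 0.313 and 0.0562).

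A separate Idi1 probe set (1388872_at) gave the same picture, with control signals of 1037, 722 and 931, Ang II signals of 1648, 1564 and 1985 and potassium signals of 1359, 1306 and 1241. Again the 3 groups did not overlap. The fold changes there were 0.95 ± 0.11 with Ang II (adjusted p = 0.000163) and 0.54 ± 0.11 with potassium (adjusted p = 0.0083), while the direct difference of 0.40 ± 0.11 did not pass (adjusted p = 0.0518). The potassium call on this probe set ended without preparation 2 (adjusted p = 0.11) and without its control or potassium array alone, the highest adjusted p over single arrays being 0.0693. The direct difference passed without the control array of preparation 1 or 2 or the potassium array of preparation 2, with an adjusted p as low as 0.0299.

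Acat2, the thiolase that joins acetyl-CoA units at the start of the pathway, had signals of 1333, 1068 and 1488 in control, 1566, 1470 and 1672 with Ang II and 1679, 1527 and 1550 with potassium. It was higher than control in all 3 preparations with both stimuli, and the potassium arrays lay above every control array, but it did not pass with Ang II (0.28 ± 0.09, adjusted p = 0.151) or with potassium (0.30 ± 0.09, adjusted p = 0.0827). Without preparation 3 the potassium value passed (adjusted p = 0.0489). Mvd, the mevalonate diphosphate decarboxylase, had the widest control spread of the set, with signals of 145, 45.1 and 99.0. Its estimates of 0.49 ± 0.29 with Ang II and 0.73 ± 0.29 with potassium did not pass (adjusted p = 0.472 and 0.178). The kinases Mvk and Pmvk gave -0.16 ± 0.16 and -0.01 ± 0.13 with Ang II and 0.18 ± 0.16 and 0.12 ± 0.13 with potassium. Fdps, the farnesyl diphosphate synthase, gave -0.02 ± 0.09 and -0.11 ± 0.09. None of these 3 passed in any comparison.

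Among the 11 enzymes from squalene to cholesterol, 1 was called with each stimulus, and it was a different gene each time. Msmo1 takes part in removing the methyl groups of lanosterol-derived sterols. Its signal (probe set 1368275_at) was 1326, 1090 and 1162 in control, 1809, 1599 and 1843 with Ang II, and 1163, 940 and 1076 with potassium. Every Ang II array was above every other array, and the potassium array was below the control array of its own preparation in all 3 preparations, although the groups overlapped. Means were 1193 ± 121 (SD, n = 3) in control, 1750 ± 132 with Ang II and 1060 ± 113 with potassium. The fold change was 0.55 ± 0.08 with Ang II (limma, adjusted p = 0.00189) and -0.17 ± 0.08 with potassium (adjusted p = 0.305, 95% confidence interval -0.35 to 0.01). The difference between the stimuli was 0.72 ± 0.08 (adjusted p = 0.000106), and it was called in all 24 alternative settings. Of the 8 calls among the members it was the 1 that passed when the variance trend was left out. Msmo1 had no second probe set.

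Cyp51 acts on lanosterol just before those demethylations. The signal of its brighter probe set (1367979_s_at) was 2210, 1912 and 2182 in control, 2632, 2127 and 2429 with Ang II, and 2841, 2257 and 2545 with potassium. In each preparation the order was control, Ang II, potassium, and the potassium arrays did not overlap the controls. The fold change was 0.27 ± 0.07 with potassium (limma, adjusted p = 0.0397) and 0.19 ± 0.07 with Ang II (adjusted p = 0.239), and the stimuli differed by -0.09 ± 0.07 (adjusted p = 0.631). The potassium call ended without any 1 of the 9 arrays (adjusted p = 0.0509 to 0.175), without any preparation (0.112 to 0.302), without the block (0.27), with no filter (0.0504), after quantile normalization (0.0577) and with the mean of both probe sets (0.105). The dimmer probe set gave 0.23 ± 0.11 (adjusted p = 0.306).

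Sc5d, the sterol desaturase near the end of the pathway, had signals of 737, 704 and 668 in control, 749, 814 and 736 with Ang II, and 1031, 925 and 765 with potassium. The potassium arrays lay above every control array, and the fold change of 0.35 ± 0.11 did not pass (adjusted p = 0.0722), while scaling to the overall array median brought it past the threshold (adjusted p = 0.0388). The dimmer probe sets of Sc5d gave 0.04 ± 0.17 and 0.50 ± 0.15 with potassium (limma, adjusted p = 0.935 and 0.0763). Fdft1, the squalene synthase, gave 0.37 ± 0.14 with potassium (adjusted p = 0.172) on its brighter probe set and -0.32 ± 0.16 on the other, so its probe sets disagreed in sign. Dhcr7, which makes the last reduction to cholesterol, gave -0.11 ± 0.09 and 0.06 ± 0.09, but differed between preparations: it averaged 2242 in preparation 1, 1168 in preparation 2 and 1234 in preparation 3, and preparation 1 was highest in every group. Sqle, the squalene epoxidase, gave 0.18 ± 0.24 with Ang II and 0.00 ± 0.24 with potassium. Lss, the lanosterol synthase, gave 0.15 ± 0.17 and 0.17 ± 0.17. The remaining sterol enzymes were Tm7sf2 (a sterol reductase), Nsdhl and Hsd17b7 (partners of Msmo1 in demethylation) and Ebp (a sterol isomerase), and their fold changes lay between -0.14 and 0.17 with Ang II and between -0.12 and 0.08 with potassium on the brightest probe set of each. The dimmer probe sets of Nsdhl and Hsd17b7 were lower: Nsdhl gave -0.52 ± 0.22 with Ang II (adjusted p = 0.287) and -0.41 ± 0.22 with potassium (adjusted p = 0.347), and Hsd17b7 gave -0.15 ± 0.22 (adjusted p = 0.816) and -0.53 ± 0.22 (adjusted p = 0.204). The Ang II arrays of the first and the potassium arrays of the second lay below every control array, and for Hsd17b7 both probe sets disagreed in sign with either stimulus. None of the 9 enzymes of this arm other than Msmo1 and Cyp51 passed in any comparison.

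Of the 5 genes of sterol sensing, Insig1 was called with potassium and none was called with Ang II. With Ang II 2 of the 5 had an unadjusted p under 0.05 (limma), Insig1 higher and Scap lower. No share of all tested probe sets was counted at that unadjusted threshold. Insig1 itself is a target of the SREBP factors. Its signal (probe set 1367894_at) was 3128, 2930 and 3057 in control, 3397, 3314 and 3842 with Ang II, and 4054, 4217 and 4373 with potassium. The 3 groups did not overlap, and in every preparation the order was control, Ang II, potassium, the reverse of the order of the stimuli for Idi1. Means were 3038 ± 100 (SD, n = 3), 3518 ± 284 and 4215 ± 159. The fold change was 0.47 ± 0.07 with potassium (limma, adjusted p = 0.000746) and 0.21 ± 0.07 with Ang II (adjusted p = 0.164). Directly compared, Insig1 was -0.26 ± 0.07 with Ang II against potassium (adjusted p = 0.0458). That difference lost its call without each of the 6 stimulated arrays and without the control array of preparation 1 (adjusted p = 0.0557 to 0.237), without each preparation (0.0909 to 0.273), without the block (0.16), with no filter (0.0681) and with either scaling (0.323 and 0.0752).

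**Figure D2:**
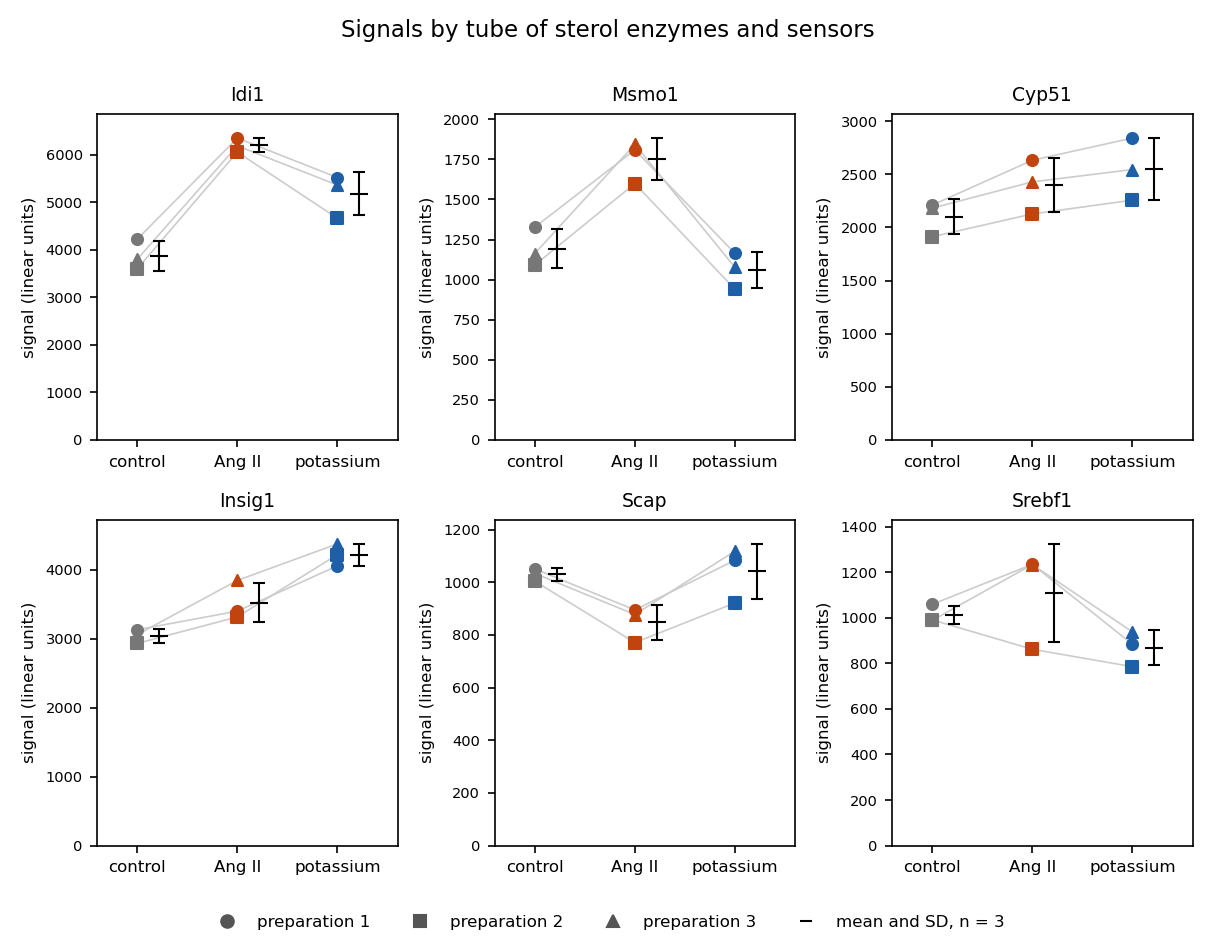
Signal (linear units, axes from 0) of 6 genes in each of the 9 tubes, with a symbol for each preparation, grey lines joining the tubes of 1 preparation, and bars for the group mean ± SD (n = 3). The Ang II tubes stand highest for Idi1 and Msmo1, the potassium tubes stand highest for Insig1, and Srebf1 has an Ang II tube of 862 beside tubes of 1234 and 1233.

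Insig2, the paralogue of Insig1, was read by 2 probe sets. The brighter gave 340, 512 and 481 in control, 475, 464 and 467 with Ang II, and 566, 469 and 449 with potassium, with overlapping groups and 0.16 ± 0.16 for potassium (adjusted p = 0.637). On the dimmer probe set the potassium signals of 320, 323 and 289 all lay above the control signals of 207, 228 and 154 and the Ang II signals of 248, 226 and 217. That probe set passed with potassium (0.64 ± 0.17, limma, adjusted p = 0.0405). Its call ended without any preparation (adjusted p = 0.0703 to 0.238), without any of 7 single arrays, namely the control and Ang II arrays of preparations 1 and 3 and the potassium array of each preparation (up to 0.172), and without the block or the filter.

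Scap signals were 1051, 1004 and 1034 in control, 895, 771 and 878 with Ang II, and 1084, 921 and 1118 with potassium. Every Ang II array lay below every control and every potassium array. The values of -0.28 ± 0.09 against control and -0.29 ± 0.09 against potassium did not pass (adjusted p = 0.156 and 0.105), and a dim second probe set gave 0.12 ± 0.26 against control. Srebf1, which encodes the SREBP most tied to fatty acid synthesis, read 1059, 990 and 988 in control, 1234, 862 and 1233 with Ang II, and 883, 785 and 938 with potassium. All potassium arrays were below all controls, at -0.22 ± 0.11 (adjusted p = 0.287), and the Ang II array of preparation 2 was lower than the others of its group. Ang II against potassium gave 0.33 ± 0.11 (adjusted p = 0.109), which passed only when that array was left out (adjusted p = 0.0459). A dimmer probe set of Srebf1 showed neither difference, at 0.06 ± 0.14 with potassium, where the groups overlapped, and -0.01 ± 0.14 between the stimuli. Srebf2, the SREBP most tied to cholesterol synthesis, read 1119, 1320 and 1101 in control, 1090, 1118 and 1220 with Ang II and 1125, 1027 and 1314 with potassium. Its groups overlapped throughout, at -0.04 ± 0.11 with Ang II (95% confidence interval -0.27 to 0.19) and -0.03 ± 0.11 with potassium (-0.26 to 0.20).

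None of the 3 measured transport genes was called on its brightest probe set. At an unadjusted p under 0.05 (limma) there were none with Ang II and 2 with potassium, Abca1 higher and Stard4 lower. The share of all tested probe sets under that threshold was not counted. Abca1, the pump that exports cholesterol to apolipoprotein acceptors, was read by 4 probe sets. The brightest gave 4725, 4014 and 4836 in control, 5028, 4334 and 5408 with Ang II, and 5471, 5084 and 5053 with potassium. The potassium arrays did not overlap the controls, and the value of 0.20 ± 0.07 did not pass (adjusted p = 0.129). The other 3 probe sets were called higher with potassium, at 0.43 ± 0.08 (limma, adjusted p = 0.00549), 0.45 ± 0.11 (0.029) and 0.61 ± 0.14 (0.0177). Their mean with the brightest, used as 1 value for the gene, also passed (adjusted p = 0.0138). With Ang II the 4 probe sets gave 0.12 ± 0.07, 0.17 ± 0.08, -0.01 ± 0.11 and 0.17 ± 0.14, none of which passed, and on 1 of the 4 Ang II was called below potassium (-0.46 ± 0.11, adjusted p = 0.0279). All 3 potassium calls ended without preparation 2 and without its potassium array alone, with an adjusted p of up to 0.0728, 0.209 and 0.165 over the preparations. The second of these calls also ended without any control array and without preparation 1, and the last without the control array of preparation 2 or 3, the potassium array of preparation 1 or the whole of preparation 3. The difference between the stimuli ended without any Ang II array (up to 0.197), without the potassium array of preparation 2 and without 2 of the 3 preparations (up to 0.219). Without the block neither of the last pair of potassium calls passed, nor did the difference (adjusted p = 0.107, 0.144 and 0.112).

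Stard4, a soluble sterol carrier that is a target of the SREBP factors, read 365, 444 and 399 in control, 305, 419 and 330 with Ang II, and 316, 311 and 323 with potassium on its brightest probe set. All potassium arrays were below all controls, at -0.33 ± 0.14 (adjusted p = 0.226). The other probe sets of Stard4 gave 0.27 ± 0.17 and -0.04 ± 0.24 with potassium, so no direction was shared by all 3. Npc2, which hands cholesterol out of lysosomes, gave -0.13 ± 0.08 with Ang II and 0.02 ± 0.08 with potassium.

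**Figure D3:**
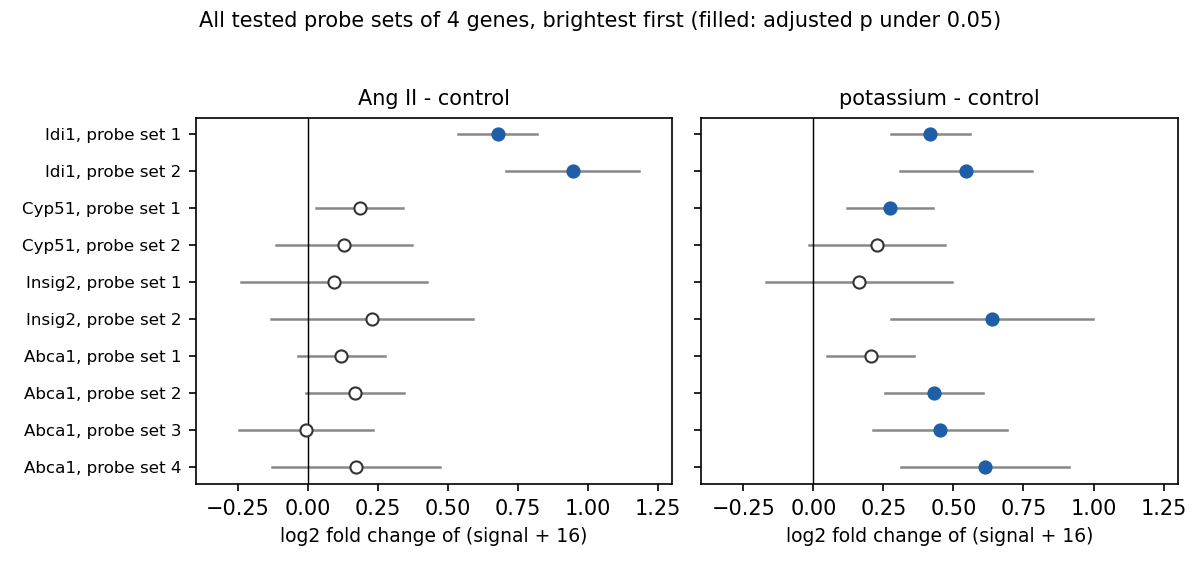
Log2 fold change of (signal + 16) on every tested probe set of the 4 genes that have several and at least 1 call, with 95% confidence intervals as lines and filled points at an adjusted p under 0.05. Both Idi1 probe sets are filled in both panels, and 3 of the 4 Abca1 probe sets are filled for potassium only.

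Over all 41 tested probe sets of the members, 3 were called with Ang II (2 genes), 8 with potassium (5 genes, all higher) and 4 between the stimuli. These were 7.32%, 19.5% and 9.76% of the 41, beside 2.2%, 5.36% and 4.79% of all tested probe sets. Probe sets of 1 gene are not independent of each other. Of the 8 calls with potassium, 3 were of Abca1, whose brightest probe set was not called. The members were chosen with earlier results of these data known, so these shares are not independent support. Of the 12 genes with several tested probe sets, 6 had the same sign on all of them with Ang II, 8 with potassium and 6 between the stimuli. The sign within each preparation was counted as well. With Ang II 8 genes were higher than control in all 3 preparations and 2 were lower, where 15.6% and 19.7% of all tested probe sets were. With potassium 9 were higher and 3 lower, against 17.4% and 20.9% of all, and between the stimuli 3 were higher and 8 lower with Ang II, against 18.9% and 19.9%. Groups that did not overlap were found for 4 members with Ang II (3 higher, 1 lower), where 15% of all tested probe sets did not overlap (7.3% higher, 7.75% lower), and for 8 with potassium (6 higher, 2 lower), where 17.6% did not (7.84% higher, 9.78% lower). Between the stimuli 7 members did not overlap (2 higher and 5 lower with Ang II), against 18.8% of all (9.72% higher, 9.06% lower). The Ang II count of 4 in 25 is near its background and says nothing particular of these genes. Among the control arrays, the highest signal of a member was a median of 1.23 times the lowest, and it reached 2 times for Mvd and Tm7sf2 only.

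Neighbouring genes of lipid metabolism were taken from 6 lists with 84 genes, of which 74 were tested. With Ang II 4 were called higher and 1 lower, and with potassium 3 higher and 2 lower, at medians of 0.02 and 0.00. Between the stimuli 2 were called higher and 2 lower with Ang II. Over all tested probe sets 2.2%, 5.36% and 4.79% were called in these comparisons, so the 5 of 74 with potassium and the 4 of 74 between the stimuli are near the background, and the genes below are given one by one without a claim for the lists. Plin2, the coat protein of lipid droplets, moved in opposite directions. Its signal was 13659, 11035 and 11937 in control, 16501, 16352 and 15407 with Ang II, and 9487, 9018 and 9610 with potassium, with no overlap between groups. The fold change was 0.40 ± 0.07 with Ang II (limma, adjusted p = 0.0037) and -0.38 ± 0.07 with potassium (adjusted p = 0.00338), and the stimuli differed by 0.78 ± 0.07 (adjusted p = 6e-06). On a second Plin2 probe set the rise with Ang II was 0.51 ± 0.09 (adjusted p = 0.00376), and the value with potassium was -0.27 ± 0.09 (adjusted p = 0.0812). The potassium call on the first ended without preparation 1 (adjusted p = 0.124) and after scaling to the overall array median, and the Ang II call on the second ended without preparation 1 (0.0899).

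In the list of stored cholesterol esters and lipid droplets (9 tested, medians -0.05 with Ang II and 0.00 with potassium), the lysosomal acid lipase Lipa fell with Ang II by 0.34 ± 0.07 on the log2 scale (adjusted p = 0.0116) and was -0.01 ± 0.07 with potassium. Lipa was lower in all 3 preparations, although its groups overlapped, and it lost its call without preparation 1 or 3 and without the control array of preparation 3 or the Ang II array of preparation 1 or 3 (up to 0.146), and after scaling to the overall array median. Lipa was also called lower with Ang II than with potassium (-0.34, limma, adjusted p = 0.00779). That difference ended without preparation 1 (0.152) and without the Ang II array of preparation 1 or 3 or the potassium array of preparation 1 (up to 0.0616). It also ended without the block and after scaling to the overall array median. The lipid carrier Fabp5 rose with potassium (0.48 ± 0.10, adjusted p = 0.00816), a call that ended without preparation 1 or its control array (up to 0.0851). In the list of SREBP-driven fatty acid genes (13 tested, medians 0.23 and 0.17), Elovl5, a fatty acid elongase, rose with potassium from 11133, 8796 and 11460 to 18104, 15843 and 15403. Its fold change was 0.66 ± 0.09 (limma, adjusted p = 0.000216), with 0.90 ± 0.14 on a second probe set (adjusted p = 0.0012). With Ang II Elovl5 gave 0.26 ± 0.09 (adjusted p = 0.147), which passed without the control array of preparation 3 (0.0342), and Ang II was called below potassium (-0.39 ± 0.09, adjusted p = 0.0138). That difference ended without preparation 1 and without 4 single arrays, the Ang II arrays of preparations 1 and 3 and the potassium arrays of preparations 1 and 2 (up to 0.269), without the block (0.0507) and after scaling to the overall median of each array (0.144).

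In the same list Fasn, the fatty acid synthase, and Mid1ip1, a regulator of fatty acid synthesis, rose with Ang II by 0.46 ± 0.10 (adjusted p = 0.0304) and 0.32 ± 0.08 (adjusted p = 0.0481). Trib1, a pseudokinase in the list of the SREBP machinery (15 tested, medians 0.06 and 0.02), rose with Ang II by 0.46 ± 0.10 (adjusted p = 0.0305), and its Ang II arrays were above those of potassium (0.44 ± 0.10, adjusted p = 0.0217). Mylip, a ubiquitin ligase for lipoprotein receptors in the list of LXR targets (8 tested, medians -0.08 and -0.01), rose with potassium by 0.37 ± 0.09 (adjusted p = 0.0329). Vldlr, a lipoprotein receptor in the list of transport and uptake (21 tested, medians -0.01 and 0.00), fell with potassium by 0.56 ± 0.13 (adjusted p = 0.0234), and 2 of its other 3 probe sets were called lower too (-0.46 ± 0.12 and -0.76 ± 0.16). The first of these ended without any 1 of the 9 arrays (adjusted p = 0.0539 to 0.196), without any preparation (0.131 to 0.256), without the block, with no filter, after quantile normalization and with either scaling. The second ended without preparation 1 (0.148) and without the control array of preparation 1 or 2 or the potassium array of preparation 1, and the brightest ended after scaling to the overall array median. These 5 calls depended on single arrays. Fasn, Trib1 and Mylip ended without any preparation (adjusted p = 0.0519 to 0.23), Mid1ip1 without any single array (0.0525 to 0.279), and the brightest Vldlr probe set without preparation 1 or 3 (up to 0.199). Single arrays that ended a call were every Ang II array and the controls of preparations 1 and 2 for Fasn, every control and Ang II array for Trib1, every control and potassium array for Mylip, and the control and potassium arrays of preparations 1 and 3 for Vldlr. The difference of Trib1 between the stimuli ended without any preparation (0.0525 to 0.346), and without the block none of these 5 genes, nor Lipa or Fabp5, passed on its brightest probe set. In the list of the isoprenoid branch, which uses farnesyl diphosphate for other products (medians -0.10 and -0.14), 0 of 8 were called with either stimulus. At an unadjusted p under 0.05 (limma) there were 1 with Ang II, which was lower, and 2 with potassium, 1 higher and 1 lower. How many of all tested probe sets lay under that threshold was not counted.

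**Figure D4:**
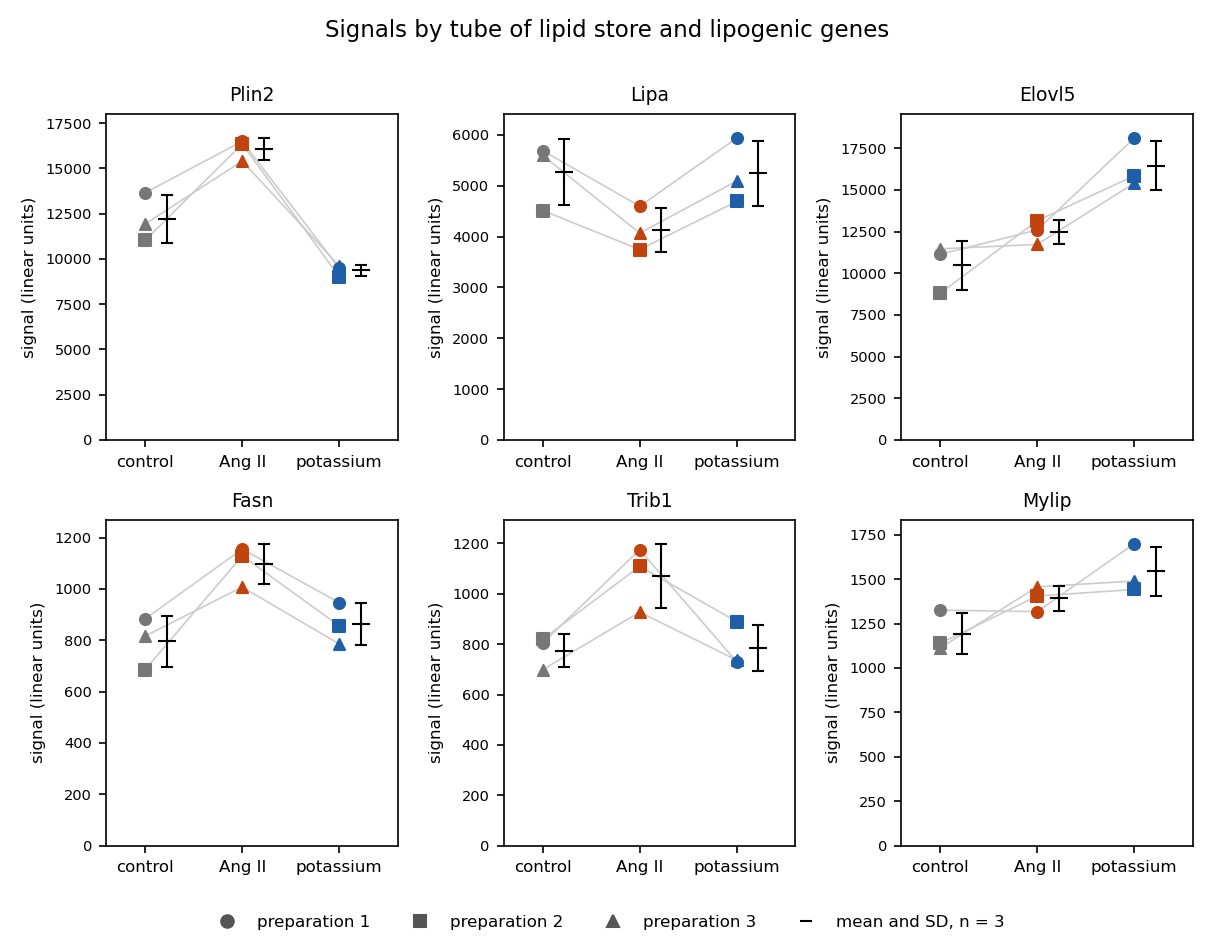
Signal (linear units, axes from 0) in each of the 9 tubes of 6 neighbouring genes of lipid metabolism, picked for the plot from those called. Symbols stand for preparations, grey lines join the tubes of 1 preparation, and bars are the group mean ± SD (n = 3). Plin2 lies highest with Ang II and lowest with potassium, Elovl5 highest with potassium and Lipa lowest with Ang II.

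All 9 arrays shared a trimmed mean signal of 500, and the median of the tested probe sets was 392.5 to 426.2. In bulk RNA, fewer cells of a type and less RNA per cell cannot be told apart. Of 8 general adrenocortical markers 7 were measured, with summed signals of 113100 to 129700 in control, 126500 to 129700 with Ang II and 124100 to 131300 with potassium, and Star and Mrap were called higher with both stimuli. Of 8 glomerulosa markers 7 were measured, with sums of 22500 to 24010, 20750 to 23410 and 22960 to 27410, and Wnt4 was called lower with Ang II. Markers of other cells were present too: 7 of 8 medulla genes summed to 2624 to 3365 in control, 2421 to 3163 with Ang II and 2421 to 3563 with potassium, and 7 of 8 endothelial genes to 22810 to 28570, 23130 to 28060 and 24360 to 29070. For macrophages 8 of 8 genes summed to 2736 to 3472, 2707 to 3651 and 2398 to 3228, and for fibroblasts 8 of 8 to 17800 to 21060, 17020 to 21450 and 19380 to 22350. The sums include endothelial Vwf and macrophage Cd163, which did not pass the signal filter and were not tested. For zona fasciculata 3 of 6 genes summed to 45730 to 54700, 50910 to 54090 and 49650 to 54400, and for red cells 3 of 4 to 17020 to 19930, 16240 to 20230 and 16840 to 21160. No gene of these 6 lists was called with either stimulus, beside 2.2% and 5.36% of all tested probe sets. With lists this short a count of 0 says little. The sums of the groups overlapped. Some lists had fold changes of a single sign. All 8 fibroblast genes were positive with potassium (median 0.075), and all 3 fasciculata genes were positive with either stimulus (medians 0.079 and 0.06). All 7 medulla genes were lower with Ang II than with potassium (median -0.097). The part of these other cells in the changes of the sterol genes was not tested.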

How the data were processed

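RNA was measured in 9 tubes of zona glomerulosa cells, 1 array each. The authors deposited 1 linear intensity per probe set and array, and the submitters' processing notes name GCOS without a version; how background was removed and probes were summarised is not stated in those notes or the labels. Of 31099 probe sets, 57 controls were left out. A single gene symbol was found for 20826 through the platform annotation, updated with RefSeq (GRCr8). Groups and preparation numbers came from the sample titles.

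Signals were taken as log2(signal + 16). Those probe sets with a mean log2 value above the 40th percentile (a signal of about 81.9) were tested, which left 18625. All 9 arrays were fitted with limma 3.58.1 in R 4.3.3 (trended eBayes, 4 residual degrees of freedom, a median of 10.7 from the prior), with group and preparation as terms, and Benjamini-Hochberg adjustment per contrast at 0.05. The design text states the pairing: arrays of 1 preparation deviated together (r = 0.09 to 0.27 over 9 pairs) and those of others less (-0.21 to 0.05 over 18 pairs). P-values measure how evenly the group differences repeated over these 3 preparations, because the block takes out the level of each preparation. The spread was moderated towards that of probe sets of like signal, and the number of arrays limits the precision. The code was tested on simulated data. All members are named; members with a call on any tested probe set, and Srebf1, Srebf2, Scap, Insig1, Insig2, Stard4 and Abca1, are given by array, as are Acat2, Sc5d, Plin2 and Elovl5 (for Elovl5, control and potassium only), which were added after their values were seen. Called neighbours are named, up to 4 per list. Members and lists were chosen with earlier results of these data known. Alternatives covered the block, pseudocount, filter, scaling, quantile normalization, variance trend, robust eBayes, the mean over probe sets, and leaving out arrays and preparations.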

Additional observations from a re-analysis of the deposited data

How the results depend on the processing

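Of 24 alternatives, 1 was chosen after seeing the data (a filter on the mean signal, not the mean log2 value). No called value changed sign in any of them, and of the 75 member fold changes 31, none of them called, had another sign in at least 1. Leaving out the variance trend was the most severe: limma then called 0 members with Ang II (4 at an unadjusted p under 0.05), 0 with potassium (8 at an unadjusted p under 0.05) and 1 between the stimuli (Msmo1), with adjusted p = 0.0636 and 0.0937 for Idi1 with Ang II and potassium, 0.11 for Msmo1 with Ang II and 0.0733 for Insig1 with potassium. The calls over all tested probe sets then fell from 409 to 38, from 998 to 258 and from 892 to 156. For the unadjusted counts, no share of all tested probe sets was taken. Without the preparation as a block, which the design's pairing supplies, 2 members were called with Ang II, 2 with potassium and 1 between the stimuli, and 197, 506 and 442 probe sets in all. Between the stimuli 1 member was also called with no filter and with scaling to the median of all or of the tested probe sets, and 556 probe sets in all with the first of these scalings. That scaling moved the calls with Ang II to 431 higher and 33 lower (310 and 99 before) and those with potassium to 722 and 177 (518 and 480 before), and scaling to the tested median gave 616 and 351 with potassium. Leaving out 1 array or 1 preparation gave 2 members in every case with Ang II, 2 to 3 with potassium and 1 to 3 between the stimuli, and as few as 143, 432 and 275 probe sets in all. With 3 preparations, precision was lowest for dim probe sets: the SE was 0.29 for Mvd, whose estimate with potassium (0.73) was above those of the called genes and did not pass, 0.24 for Sqle and 0.22 for Tm7sf2.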
